A study of Mus musculus with 6 samples.

Results

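Chromatin RNA pulled down with the telomere-directed probe TH59-DB, a pyrrole-imidazole polyamide, was set against the RNA of the input chromatin from which the capture started. The comparison rests on 4 of the 6 libraries of the series, chosen by their labels: 2 of TH59-DB capture and 2 of input. The other 2 libraries, captured with a masked form of the probe that the labels call the negative control, are given beside many of the results as background. Where a result gives no masked value, that background was not set beside it. All libraries came from MEL cells, a mouse erythroleukemia line labelled as strain C57BL/6, grown in roller bottles and crosslinked with formaldehyde before chromatin was prepared. Input was chromatin RNA taken before capture. All groups are thus 1 crosslinked cell line, and the labels do not say whether libraries 1 and 2 of a group came from separate cultures. The p-values below therefore measure only the spread between these libraries, which may be technical.

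Telomeres of mammals are arrays of the hexamer TTAGGG, copied by telomerase, a reverse transcriptase that carries its own template RNA, Terc. Terc belongs to the H/ACA class of RNAs and shares with the scaRNAs, the guide RNAs of Cajal bodies, a sequence element that directs it to those nuclear bodies. RNA polymerase II also transcribes chromosome ends from the subtelomere outwards, giving the repeat RNA called TERRA. Pyrrole-imidazole polyamides bind the minor groove of DNA and can be designed to read short sequences such as the telomere hexamer.

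Genome sequence of the captured RNAs themselves was not at hand. Of the 5498 models tested below, 350 reached into RefSeq promoter windows (GRCm38.p6, 250 bases before to 50 bases after a gene's start). Among the 242 models called higher a smaller share did so, 4 models, in the windows of 5 genes. The windows of 3 of these genes are printed because the gene's own span also holds the model, and they show which bases around the annotated start the model covers. The other windows, of C030010L15Rik and Ercc8, were entered by models assigned to other genes, in mid-window and at the 5′ end. Zfp971 encodes a zinc finger protein, and B230307C23Rik and Gm1976 are RefSeq genes for which no function is given here. Each window reads 5′ to 3′ on the gene's own strand, and capitals mark the bases that lie inside the captured model. The positions are chr2:178023034-178023333 on the plus strand for Zfp971, chr16:97997086-97997385 on the plus strand for B230307C23Rik and chr17:94834750-94835049 on the minus strand for Gm1976.
Zfp971: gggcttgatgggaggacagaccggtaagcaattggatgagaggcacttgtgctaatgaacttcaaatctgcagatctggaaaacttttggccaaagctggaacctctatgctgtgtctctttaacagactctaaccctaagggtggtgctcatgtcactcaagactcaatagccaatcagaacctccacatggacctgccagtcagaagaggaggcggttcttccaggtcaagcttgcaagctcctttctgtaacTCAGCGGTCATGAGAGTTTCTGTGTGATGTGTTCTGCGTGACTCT
B230307C23Rik: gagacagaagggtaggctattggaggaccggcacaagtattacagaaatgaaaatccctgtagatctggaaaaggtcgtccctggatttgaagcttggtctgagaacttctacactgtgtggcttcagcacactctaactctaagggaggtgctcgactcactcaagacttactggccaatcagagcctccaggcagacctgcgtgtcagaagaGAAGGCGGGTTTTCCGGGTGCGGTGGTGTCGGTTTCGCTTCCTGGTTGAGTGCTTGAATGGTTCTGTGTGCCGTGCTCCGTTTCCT
Gm1976: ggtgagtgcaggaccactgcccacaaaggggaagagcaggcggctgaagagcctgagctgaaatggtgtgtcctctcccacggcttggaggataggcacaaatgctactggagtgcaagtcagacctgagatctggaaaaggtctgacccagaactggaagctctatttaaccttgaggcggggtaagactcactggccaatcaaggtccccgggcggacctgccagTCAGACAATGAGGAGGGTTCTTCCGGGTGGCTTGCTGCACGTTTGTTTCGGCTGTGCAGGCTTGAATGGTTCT
In the 3 printed windows the captured bases form a single block, of 45 bases in Zfp971, 86 in B230307C23Rik and 73 in Gm1976, that reaches the window's downstream end. Each window was searched on both strands for the telomere hexamer, TTAGGG or its complement CCCTAA. One match, CCCTAA at position 135 counted from the window's 5′ end, was found in Zfp971, upstream of its captured bases, and none in the other windows. Of 32851 promoter windows of this length, 10.6% held the hexamer, and 4 windows held 2 copies in tandem. A match of letters is a description of the window and not a binding site.

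The deposited tables gave whole-number read counts for 7959 assembled transcript models at 7853 loci, a locus being a cluster of models joined by exonic overlap. Library totals ran from 1803723 to 3122558 reads, so that 1 read was 0.320 to 0.554 CPM, that is reads per 1000000 of each library total, and 35.7% to 69.2% of a library's reads fell in the models. The model set carries a limit that touches every result below. TH59-DB library 1 had no model under 5 reads, while 1404 models had 0 reads in TH59-DB library 2 and 1760 and 1884 in the inputs, so the models may have been chosen from TH59-DB library 1. Over all models, the Spearman correlation of the counts in the libraries was 0.921 between the inputs and 0.568 between the TH59-DB libraries. Globin genes are not reported here. Of 40 erythroid genes listed 21 had a model, among them the transcription factor genes Gata1, Klf1, Zfpm1 and Nfe2. Of 18 genes that mark other blood cells 2 had a model (Laptm5 and Itga2b), and of 13 that mark other tissues 0 had one.

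Terc, the template RNA of telomerase, rose 790-fold over input. Its model on chromosome 3 (96414374 to 96414859, 486 bases, 1 exon) had 100 and 68 reads in the input, 152 and 149 with the masked probe, and 56510 and 36137 with TH59-DB. Both TH59-DB libraries lay far above the other 4, and the lower TH59-DB level was 417-fold the higher input level. Terc made up 2.26% ± 1.23 of the TH59-DB reads against 0.00287% ± 0.000685 of the input reads (SD, n = 2 each), a ratio of 790 (pooled ratio 733, 95% exact binomial interval 630 to 858, counting error only). The masked probe gave 0.00624% ± 0.00208, 2.18-fold the input. By reads, Terc ranked 3 and 4 among all models in the TH59-DB libraries and 634 and 1313 in the inputs. Per length, its rank was 3 and 12 with TH59-DB against 878 and 1922 in the inputs. The log2 fold change was 9.73 (SE 1.64, edgeR adjusted p = 0.00183), and the call held in all 16 alternative settings, with adjusted p from 5.36e-42 to 0.0175. The ratio sets captured RNA against its input, and bulk libraries do not show how many cells held an RNA or how much each held.

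Few of the other telomere genes were measured. Of 22 genes of telomerase and shelterin, the protein cap of telomeres, 7 had a model and 6 were tested, and Terc alone passed. The model in the span of Nhp2, a protein subunit of H/ACA particles and of telomerase, had 77 and 96 input reads against 31 and 27 with TH59-DB (log2 fold change −0.83, adjusted p = 0.705). Terf2, a shelterin protein that binds the repeats, had 18 and 27 against 10 and 6 reads (−0.75, adjusted p = 0.900). Atrx, a chromatin remodeler active at telomeres, had 150 and 150 against 57 and 145 reads (0.25, adjusted p = 0.958). Differences of this size were not detectable at such counts. The values of Terf2 and Nhp2 were negative in all 16 alternatives.

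**Figure D1:**
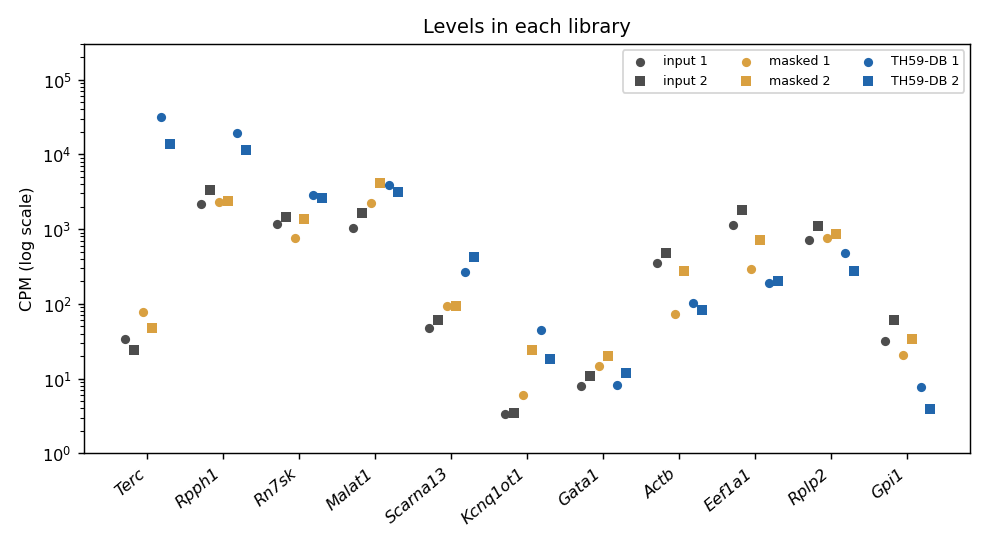
Levels of 11 RNAs in each library, in CPM on a log axis, with circles for library 1 and squares for library 2 of input (grey), masked probe (yellow) and TH59-DB (blue). Terc lies between 23.8 and 77.1 CPM in the input and masked libraries and at 13957 or more in both TH59-DB libraries, while Gpi1 is lower with TH59-DB than in either input.

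The plot of levels in each library sets Terc beside other RNAs of the nucleus and beside mRNAs of the cytoplasm. Rpph1, the RNA of ribonuclease P, was also above both inputs in both TH59-DB libraries, without passing the test.

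Across all models, the comparison asks which chromatin RNAs the capture enriched or left behind. Of 5498 models with enough reads for the test, 242 at 201 loci were higher with TH59-DB (4.4% of those tested) and 3 at 3 loci were lower (0.0546%). Counted with 1 model per locus, 3.73% of 5392 loci were higher and 0.0556% lower. At an unadjusted p under 0.05, 614 models (11.2%) were higher and 186 (3.38%) lower. In 1286 models (23.4%) both TH59-DB libraries lay above both inputs, and in 1268 (23.1%) both lay below. The median log2 fold change of all tested models was 0.35 under TMM scaling and 0.14 when scaled to the library totals. That second scaling gave 210 higher and 29 lower, and DESeq2 gave 327 and 37. Without TH59-DB library 2 the counts fell to 80 and 1, and without masked library 1 they rose to 497 and 33, and without masked library 2 to 411 and 53.

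**Figure D2:**
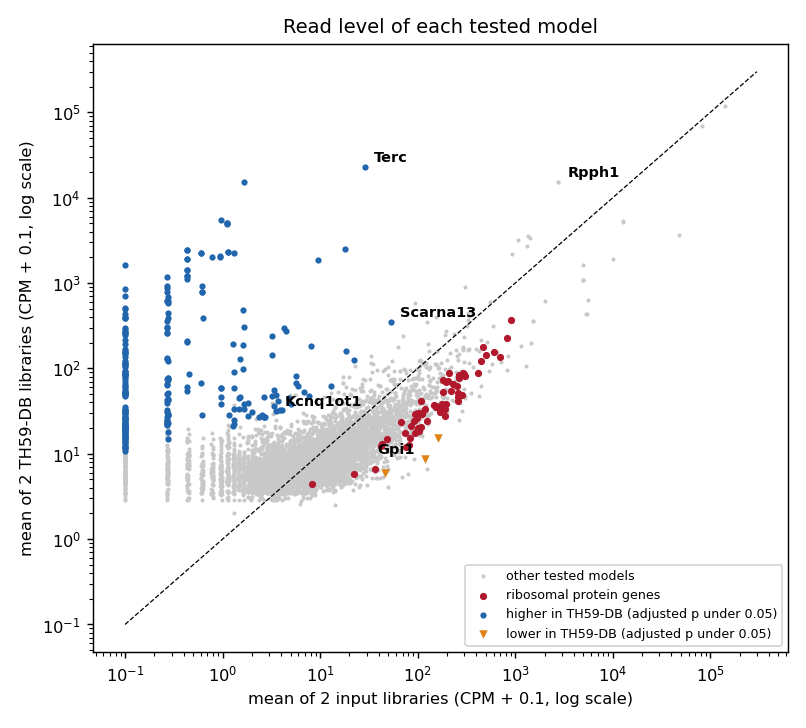
Each tested model by its mean level in 2 input libraries (x axis) and 2 TH59-DB libraries (y axis), both in CPM + 0.1 on log axes, with the dashed line marking equal levels. The 242 models called higher (blue) lie mostly at the left edge, where the input held few or 0 reads, Terc is among the highest of them, and the ribosomal protein genes (red) lie below the line.

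The plot of mean levels shows what kind of RNA was called. Of the 242 higher models, 104 had 0 reads in both inputs and 174 had at most 4 input reads in all. A model with so few input reads could pass the read filter only through the TH59-DB or masked captures. Being tested thus favoured a value above the input, so the count of such models is a description. By contrast 3376 loci had at least 10 reads in both inputs, and at these 12 were higher and 3 lower. Terc led this set, followed by models in the spans of Dgki, a diacylglycerol kinase (log2 fold change 4.03, SE 0.75, adjusted p = 0.00402, lost in 4 of 16 alternatives), Zfp971 (178035239 to 178035535, 3.89, adjusted p = 0.0148) and Gm1976 (94816219 to 94817172, 3.77, adjusted p = 0.0370). The Zfp971 and Gm1976 models of this set are not the ones that enter the promoters printed above. The remaining members with a gene name were Gm30063 (3.69), Kcnq1ot1 (3.33) and Scarna13 (3.18).

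The 201 higher loci together held 0.0235% and 0.0364% of the input libraries, 0.552% and 0.526% of the masked libraries, and 7.14% and 12.7% of the TH59-DB libraries. Since these loci were picked for the difference, the shares are descriptive. Terc and the model at the end of chromosome 2 made up 49.6% and 31.9% of those TH59-DB reads, and without them the shares were 3.60% and 8.68%. The masked probe shared part of the rise: its mean level was above the input mean in 184 of the 242 models, and both masked libraries were above both inputs in 156. The TH59-DB mean was above the masked mean in 238, and both TH59-DB libraries were above both masked libraries in 229. In 168 of the 242 the level was higher in TH59-DB library 2 than in library 1.

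**Figure D3:**
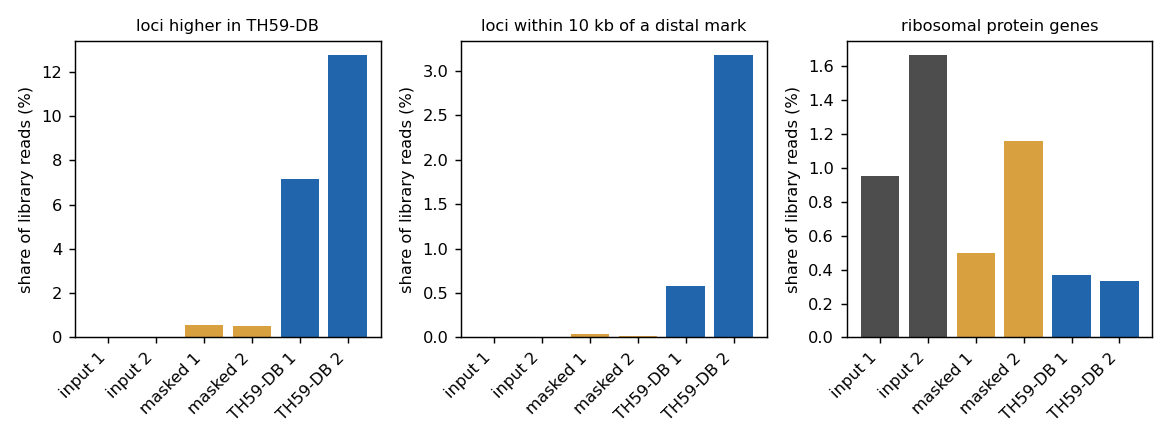
Share of each library's reads, in percent, in the loci called higher (left), in the loci within 10 kb of a distal mark (middle) and in ribosomal protein genes (right), with 1 bar per library and separate scales. The left set was chosen for its difference. The TH59-DB bars reach 12.7% and 3.17% in the left and middle panels, and in the right panel they are the lowest of the 6, at 0.368% and 0.332%.

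Loci at the distal ends of chromosomes were nearly silent in the input and present with TH59-DB. Mouse chromosomes carry their centromere at one end, and a distal mark, the end of the outermost gene or model, stood in for the opposite end because true ends are not in the files. Where a model is itself the outermost feature, it sets the mark. Of 55 loci within 10 kb of a mark, on 18 chromosomes, 5 and 6 had any read in the inputs, 7 and 6 with the masked probe, and 55 and 52 with TH59-DB. Away from the ends the inputs and TH59-DB library 2 were closer. Of 6486 loci over 10 Mb from a mark, 79.0% and 77.7% had a read in the inputs and 81.9% in TH59-DB library 2. With the masked probe 46.1% and 77.8% did, so masked library 1 had fewer loci with a read there too. TH59-DB library 1 has a read in every model, so library 2 is the informative one of the pair here. The loci within 10 kb made up 0.584% and 3.17% of the TH59-DB libraries, 0.0350% and 0.0221% of the masked libraries and 0.000395% ± 8.51e-05 of the inputs (SD, n = 2).

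Most of those reads came from a single model at the end of chromosome 2 (182012702 to 182013229, 528 bases, in no gene span). It had 4 and 5 reads in the input, 471 and 514 with the masked probe, and 7357 and 68895 with TH59-DB. The 3 groups did not overlap, the masked libraries lay between the others, and the TH59-DB libraries differed several-fold from each other. Its mean level was 9928-fold that of the input (log2 fold change 13.95, SE 2.15, adjusted p = 0.000914) and 76.0-fold that of the masked probe. Without this model the loci within 10 kb still held 0.176% and 0.512% of the TH59-DB libraries, 0.0111% and 0.00560% of the masked libraries and 0.000201% and 0.000280% of the inputs.

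Calls by distance are given as a description, because most outer loci were near 0 in the input and could be tested only through the captures. Of all 218 tested loci with 0 reads in both inputs, wherever they lay, 91 (41.7%) were higher. Of the loci within 10 kb of a mark 32 were tested and 13 were higher, on 11 chromosomes (2, 5, 7, 9, 11, 13, 14, 16, 17, 18 and 19). Between 10 and 100 kb 16 of 50 tested loci were higher, on 5 chromosomes, and between 100 kb and 1 Mb 3 of 80 were. Chromosome Y, where reads may also belong to chromosome X, held 10 of the higher loci within 1 Mb, none of them within 10 kb. Over all distances 3.73% of tested loci were higher. Farther in, 31 of 722 loci at 1 to 10 Mb and 137 of 4484 beyond 10 Mb were higher, 4.29% and 3.06%, near that background. The median log2 fold change of the tested loci in these 5 classes was 7.59, 4.61, 1.38, 0.58 and 0.25. Without TH59-DB library 1, from which the models may have been chosen, 5 of 32, 10 of 50, 3 of 80, 25 of 722 and 102 of 4484 loci were higher; without library 2 the counts were 2, 4, 1, 9 and 43. At the opposite end, within 5 Mb of the chromosome start, 7 of 118 tested loci were higher and 1 lower.

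**Figure D4:**
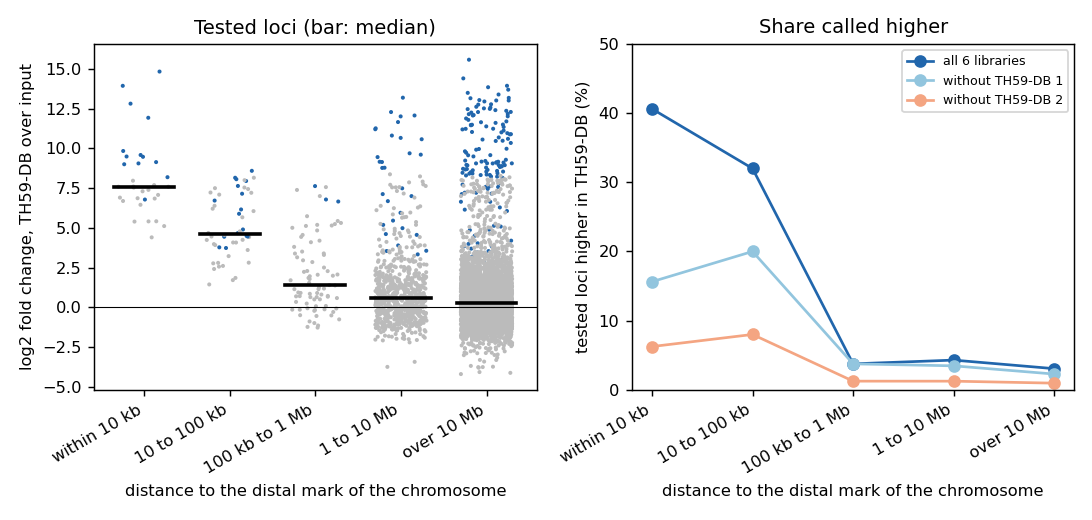
Left, log2 fold change of TH59-DB over input for each tested locus, grouped by distance to the distal mark, with calls in blue and the median as a bar. Right, percent of tested loci called higher in each distance class, with all 6 libraries and without each TH59-DB library. The share is 40.6% within 10 kb, 32.0% between 10 and 100 kb and 3.06% beyond 10 Mb. Between 10 kb and 1 Mb, 10 of the calls lie on chromosome Y.

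Outermost loci of other chromosomes were also near 0 in the input, with fewer TH59-DB reads than on chromosome 2. At the end of chromosome 14, a spliced model of 129 bases (124799247 to 124801911) had 2 and 0 input reads, 212 and 138 masked reads, and 1677 and 7621 TH59-DB reads (log2 fold change 12.82, adjusted p = 0.000742). At the end of chromosome 19, the model from 61331145 to 61331419 had 0 reads in both inputs, 0 and 12 with the masked probe and 108 and 4298 with TH59-DB, at least 837-fold the input counted against 3 reads per library. Its adjusted p was 0.00366 and rose to 0.135 without TH59-DB library 2, so that library decides the call. At the ends of chromosomes 7, 11, 13 and 17 the outermost called models had 0 reads in both inputs and in both masked libraries, and 22 to 121 reads in each TH59-DB library. Of the 13 higher loci within 10 kb, 10 had 0 input reads and 8 had 0 masked reads.

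On chromosome Y, 10 of the 23 loci tested within 1 Mb of the mark were higher. Its distal end is the pseudoautosomal region, shared with chromosome X, so reads there may belong to either chromosome. The longest, a model of 2268 bases in 2 exons (90813197 to 90821200), had 9 and 93 reads in the input, 3 and 4 with the masked probe, and 5421 and 5079 with TH59-DB. Here the TH59-DB libraries lay close together and the masked libraries were below the inputs in CPM. The mean was 140-fold the input (log2 fold change 7.64, adjusted p = 0.00214) and 1772-fold the masked probe. On the autosomes 22 of 139 tested loci within 1 Mb were higher. On chromosome 16, 97.2 kb from the mark, the B230307C23Rik model whose promoter is printed above (97997300 to 98010226, 4 exons) had 240 and 1094 TH59-DB reads against 6 and 19 in the input and 29 and 33 with the masked probe (log2 fold change 6.72, adjusted p = 0.00149). Near the end of chromosome 17, the Gm1976 model (94834601 to 94834822) had 54 and 231 TH59-DB reads against 4 and 3 input and 3 and 15 masked reads (6.16, adjusted p = 0.00159).

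Most higher loci lay inside the chromosomes, and among these the masked probe was often raised as well. Of the 242 models, 204 lay over 1 Mb from a mark and 127 lay in no annotated gene span. An interior model in no gene span on chromosome 13 (116192889 to 116193000, 112 bases) had 3 and 2 input reads, 1305 and 1989 masked reads and 3174 and 23552 TH59-DB reads. All 4 capture libraries lay far above both inputs, and the TH59-DB mean was 6366-fold the input but 8.36-fold the masked probe. A spliced model of 77 bases on chromosome 12 (102834248 to 102893034) had 6 and 0, 766 and 1583, and 5307 and 18593 reads, 5037-fold the input and 11.3-fold the masked probe. One of 99 bases on chromosome 4 (31348679 to 31354292) had 4 and 2, 373 and 352, and 3050 and 20893 reads, 4784-fold the input and 32.3-fold the masked probe. Of 73 loci under 100 bases, 33 and 38 had 0 reads in the inputs. Of the 67 tested 36 were higher, a count to be read beside the 3.73% over all loci and the 41.7% among input-silent loci. In 35 of the 36 the masked mean was also above the input mean, and 1 lay within 1 Mb of a mark.

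The 115 higher models inside gene spans fell in 85 genes, and 90 of these models were in protein-coding spans and 21 in lncRNA spans. Lying in a span does not make a model part of the gene's transcript, and whether reads came from the sense or the antisense strand cannot be told apart here. In the span of Lama1, a laminin chain of basement membranes, a model of 295 bases on chromosome 17 (67741287 to 67741581) had 2 and 0 input, 633 and 1213 masked and 2027 and 9720 TH59-DB reads (log2 fold change 13.16, SE 1.86, adjusted p = 0.000624). The span of Esr1, the estrogen receptor, held a model on chromosome 10 (4614286 to 4614937) with 1 and 0, 15 and 13, and 888 and 3308 reads, 5284-fold the input and 150-fold the masked probe. With 1 input read in all, the 95% exact binomial interval of its pooled ratio ran from 1001 to 220393. The model in Ppp1r9a, an actin-binding protein of neurons, had 0 input reads, 140 and 67 masked reads and 1457 and 6288 TH59-DB reads, at least 1574-fold the input. Further models of this kind lay in the spans of Ptprm and Plxnc1, which encode cell-surface receptors, and of Setd4, a SET-domain methyltransferase. Their log2 fold changes were 12.29, 11.68 and 11.54, and all 3 passed in each of the 16 alternatives. Against the masked probe their ratios were 19.5, 9.89 and 6.72.

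Of 28 very long genes 13 had a model, 7 were tested and 3 were higher, where 4.4% of all tested models were. These 3 had 0 to 2 input reads, so they were tested only through the captures. The list's share of reads was 0.870% and 0.230% of the inputs and 0.0962% and 0.0719% with TH59-DB. With the masked probe it was 0.0715% and 0.0796%, so both captures lay below the inputs. Nearly all of its input reads lay in the model of Gphn, described below, so the fall in share follows that gene. Of the 7 tested members, 5 had a positive and 2 a negative log2 fold change. In Nedd4l, a ubiquitin ligase gene on chromosome 18, the model had 0 and 2 input reads, 0 and 0 masked reads and 147 and 229 TH59-DB reads (log2 fold change 8.24, adjusted p = 0.000521). In Immp2l, a mitochondrial peptidase gene, it had 0 input reads, 0 and 4 masked reads and 70 and 379 TH59-DB reads, at least 90.1-fold the input. The third was Lrp1b, a lipoprotein-receptor relative, with 0 input reads, 7 and 6 masked reads and 43 and 720 TH59-DB reads. None of the 3 calls held without TH59-DB library 2, with adjusted p of 0.0749 for Nedd4l, 0.231 for Immp2l and 0.282 for Lrp1b.

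Of 87 zinc finger genes named Zfp with a model 66 were tested and 1 passed as higher, against 4.4% of all models. At an unadjusted p under 0.05, 8 were higher and 1 lower, against 11.2% and 3.38% of all models. Of the 66, 58 had a positive and 8 a negative log2 fold change, and the median was 1.23 against 0.35 over all models, of which 3294 were positive and 2204 negative. Without TH59-DB library 1 or 2, 54 and 48 were positive. The list medians were then 0.91 and 0.84, against 0.0057 and 0.15 over all models. The list's share of reads was 0.0610% and 0.0649% in the input, 0.0594% and 0.0950% with the masked probe and 0.117% and 0.0737% with TH59-DB. Zfp971 passed: its spliced model on chromosome 2 (178023289 to 178033497), whose promoter is printed above, had 7 and 25 input reads, 0 and 25 masked reads and 96 and 289 TH59-DB reads (log2 fold change 4.56, adjusted p = 0.0228). This call was lost in 4 of 16 alternatives, among them leaving out TH59-DB library 2 or input library 1. Zfp292 had 56 and 60 reads against 191 and 139 (2.21, adjusted p = 0.0637), with 65 and 195 masked reads.

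The scaRNAs, which guide modification of spliceosomal RNAs in Cajal bodies, had positive log2 fold changes in all 4 tested members. Over all models 3294 were positive and 2204 negative. The list median of 2.07 fell to 0.77 without TH59-DB library 2. Scarna13 passed, where 4.4% of all tested models were higher. Scarna13 (chromosome 12, 105031078 to 105031360) had 140 and 173 reads in the input, 184 and 290 with the masked probe and 486 and 1094 with TH59-DB. The TH59-DB libraries were above all others, with a ratio to input of 6.44 (log2 fold change 3.18, SE 0.82, adjusted p = 0.0424). The call was lost in 8 of 16 alternatives, with adjusted p up to 0.381. Scarna10 had 54 and 45 against 76 and 238 reads (2.48, adjusted p = 0.0944, passing in 3 of 16 alternatives, DESeq2 among them) and Scarna2 75 and 81 against 117 and 171 (1.67, adjusted p = 0.218). Scarna6 was less steady, with 41 and 75 against 24 and 156 reads (1.60, adjusted p = 0.444), and turned negative without TH59-DB library 2. The 11 H/ACA snoRNAs, the class Terc belongs to, had a median of −0.71 and 9 C/D snoRNAs of −0.64, with 0 of either passing in edgeR or DESeq2. Both medians rest on input library 1 and were 0.51 and 0.67 without it. At an unadjusted p under 0.05, 2 H/ACA and 1 C/D snoRNA were lower, where 3.38% of all models were. Snora73a, for example, had 235 and 143 reads in the input and 37 and 29 with TH59-DB (−1.88, adjusted p = 0.187).

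Of the small RNAs made by RNA polymerase III 6 were tested and 0 passed. With an unadjusted p under 0.05, 1 was higher and 1 lower, against 11.2% and 3.38% of all models. Rpph1 (chromosome 14, 50807450 to 50807768) had 6540 and 9555 reads in the input, 4576 and 7323 with the masked probe and 34413 and 29349 with TH59-DB. Its TH59-DB levels were both above all other libraries, by 5.49-fold over the input mean, but the spread of the fit left it short of the threshold (log2 fold change 2.75, SE 1.14, adjusted p = 0.255), and DESeq2 called it. Rn7sk, which holds the elongation factor P-TEFb in check, had 3445 and 4207 against 5077 and 6771 reads (1.42, adjusted p = 0.599). Rmrp, the RNA of a related ribonuclease, had 2022 and 1225 against 1490 and 1005 (0.24, adjusted p = 0.966), a value near 0. The Y RNA Rny3 had 373 and 23 reads in the inputs, 15 and 20 with the masked probe and 24 and 12 with TH59-DB (−3.02, adjusted p = 0.167). Its sign rests on input library 1.

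Of 16 long noncoding RNAs listed as nuclear, a label that need not hold for each, 6 were tested. Kcnq1ot1 passed, where 4.4% of all tested models were higher. All 6 had positive log2 fold changes with a median of 1.72, but not all lay above the inputs in CPM. Kcnq1ot1, which silences an imprinted cluster in cis on chromosome 7 (143225311 to 143226042, 2.11 Mb from the mark), had 10 and 10 input reads, 12 and 75 masked reads and 80 and 47 TH59-DB reads. Its ratio to input was 9.12 (95% exact binomial interval of the pooled ratio 5.24 to 14.3, log2 fold change 3.33, adjusted p = 0.0301) and its ratio to the masked probe 2.08. The call was lost in 7 of 16 alternatives, among them each of those that left out an input or a TH59-DB library. Malat1, a lncRNA of nuclear speckles, had 3121 and 4754 input reads, 4397 and 13043 masked reads and 6993 and 8159 TH59-DB reads. Its mean was 2.59-fold the input but 1.10-fold the masked probe (1.75, adjusted p = 0.486), and DESeq2 called it higher. Tug1 had 15 and 14 input reads, 50 and 45 masked reads and 29 and 9 TH59-DB reads. Norad had 31 and 57, 24 and 113, and 42 and 24 reads. In both, TH59-DB library 2 lay below both inputs in CPM. Tug1 and Norad had log2 fold changes of 1.00 and 0.33 (adjusted p = 0.768 and 0.939), and their mean levels were 0.492 and 0.673 of the masked probe's.

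Messenger RNAs of the translation machinery and the cytoplasm lay below the input, and few single genes passed. All 62 tested ribosomal protein genes had a negative log2 fold change, with a median of −1.52 against 0.35 over all models, and 0 passed in the edgeR fit of 6 libraries. At an unadjusted p under 0.05, 33 of the 62 were lower, against 3.38% of all models. DESeq2 called 4 lower, against 37 of 7959 models in all, and scaling to library totals 3, against 29 of 5498. Their share of the reads was 0.951% and 1.66% in the input, 0.501% and 1.16% with the masked probe and 0.368% and 0.332% with TH59-DB. Both TH59-DB libraries were below the other 4, and the mean share was 3.74-fold lower than in the input. The sign of all 62 stayed negative in each of the 16 alternatives. Rpl28, of the large subunit, had 136 and 299 input reads, 29 and 125 masked and 22 and 30 TH59-DB reads (−2.20, adjusted p = 0.0914). Rplp2, of the ribosomal stalk, had 2101 and 3160 input, 1495 and 2695 masked and 857 and 705 TH59-DB reads (−0.99, adjusted p = 0.723).

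Translation factor genes had a negative value in 21 of 23 tested and a median of −1.30, with 0 passing in the edgeR fit of 6 libraries. Lower at an unadjusted p under 0.05 were 6, against 3.38% of all models. DESeq2 called 2 lower, against 37 of 7959 models in all. Eef1a1, which brings aminoacyl-tRNA to the ribosome, had 3396 and 5104 reads in the input, 568 and 2212 with the masked probe and 340 and 530 with TH59-DB. That is 1463 CPM ± 460 against 197 ± 11.5 (SD, n = 2, log2 fold change −2.45, adjusted p = 0.164). Pabpc1, the cytoplasmic poly(A)-binding protein, had −2.13 (adjusted p = 0.253) and Eif5a −1.95 (adjusted p = 0.159). Other abundant cytoplasmic mRNAs were negative in 25 of 26 with a median of −1.58, and 1 passed as lower. That gene was Gpi1, glucose-6-phosphate isomerase of glycolysis, whose model on chromosome 7 (34202246 to 34202676) had 96 and 173 input reads, 41 and 105 masked reads and 14 and 10 TH59-DB reads. Its TH59-DB levels were below all others, 7.98-fold under the input mean (−2.71, SE 0.68, adjusted p = 0.0364), and the call was lost in 6 of 16 alternatives. Among 15 genes of sugar metabolism 12 were negative, with Gpi1 the member that passed. Ybx1, an mRNA-binding protein, had 846 and 1641 against 59 and 162 reads (−2.57, adjusted p = 0.107) and Actb 1062 and 1376 against 184 and 215 (−1.83, adjusted p = 0.230).

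Histone genes, whose mRNAs lack a poly(A) tail, were negative in 34 of 35 tested with a median of −0.98, and 0 passed in the edgeR fit of 6 libraries. Lower at an unadjusted p under 0.05 were 6, against 3.38% of all models. DESeq2 called 1 lower, against 37 of 7959 models in all. H4c4 had 275 and 376 input reads, 66 and 251 masked reads and 24 and 49 TH59-DB reads (−2.31, adjusted p = 0.0810). Genes of secreted and membrane proteins had a median of −0.59 over 17 tested, chromatin regulators −0.51 over 22 and genes with retained introns −0.14 over 28, with 0 passing in edgeR or DESeq2 in any of these 3 lists. At an unadjusted p under 0.05 1 secretory gene was lower and 0 of the others, where 3.38% of all models were lower. Erythroid genes had a median of −0.20 over 20 tested with 0 passing in the edgeR fit of 6 libraries or in DESeq2. Lower at an unadjusted p under 0.05 was 1, against 3.38% of all models. Car1, a carbonic anhydrase of red cells, had 608 and 751 reads in the input against 61 and 124 with TH59-DB (−2.04, adjusted p = 0.150). Gata1 had 24 and 31 input reads, 29 and 63 masked reads and 15 and 31 TH59-DB reads (0.57, adjusted p = 0.886). Its value turned negative without TH59-DB library 2. Laptm5 and Itga2b, the 2 markers of other blood cells, had −0.72 and −0.12 (adjusted p = 0.867 and 0.985).

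**Figure D5:**
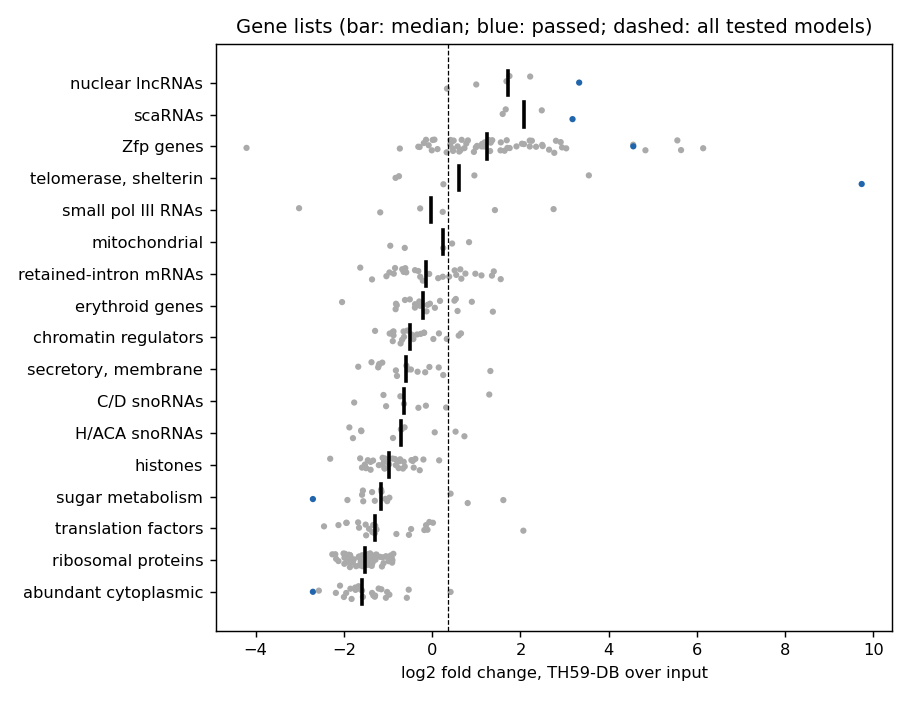
Log2 fold change of TH59-DB over input for the tested members of 17 gene lists, 1 point per gene, with list medians as bars, members that passed in blue and the median of all tested models (0.35) as a dashed line. The nuclear lncRNAs and scaRNAs lie to the right of the dashed line by their medians (1.72 and 2.07), and ribosomal proteins (−1.52) to the left.

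The 3 models that passed as lower were Gpi1, a model in the span of the pseudogene Gm8730 on chromosome 8 and an 83-base model on chromosome X. The Gm8730 model (102865363 to 102865709) had 499 and 441 input reads, 146 and 202 masked reads and 21 and 48 TH59-DB reads, 10.7-fold under the input (−2.98, adjusted p = 0.0432). The call was lost in 4 of 16 alternatives, among them leaving out input library 1 or TH59-DB library 1. Since a pseudogene resembles its parent gene, reads of the parent may be counted there. The chromosome X model (4136294 to 4136376) had 636 and 70, 21 and 67, and 18 and 18 reads (−3.77, adjusted p = 0.0456). This call was lost in 8 of 16 alternatives, among them leaving out any 1 library other than input library 2, and without input library 1 the value was −0.92. Some of the models most abundant in the input also had far fewer TH59-DB reads without passing. A model of 188 bases on chromosome 6 (49236453 to 49236640) went from 228457 and 56147 reads to 10280 and 4335 (−3.81, adjusted p = 0.186), with 12794 and 21163 with the masked probe. The model in the span of Gphn, the gene of the synaptic scaffold gephyrin, went from 25762 and 6258 to 1271 and 439 (−3.77, adjusted p = 0.112).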

How the data were processed

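RNA was sequenced in 6 libraries made with a stranded total RNA kit, per the labels' protocols. The authors deposited counts, whole reads per assembled transcript model, and FPKM values. Per the submitters' processing notes cutadapt, HISAT2, Cufflinks, featureCounts and build mm10 were used; versions and the strand setting of the counting are not given in the sources used here. Files of library numbers 1 and 2 name models differently, and 7695 were joined on all exons and 264 on start and length. Library totals were recovered from the deposited FPKM values, and CPM uses these totals. Genes came from RefSeq spans of GRCm38.p6 (at least 50% of a model's bases, or a gene of at most 1000 bases at least 80% covered by a single-exon model no longer than 8 times the gene). The labels number only library 2 of a group, so the other was taken as 1.

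Counts were tested with edgeR 4.0.16 in R 4.3.3 (filterByExpr, TMM on sums of model counts, robust quasi-likelihood F-test, 2-sided) in 1 fit of all 6 libraries with a group term, Benjamini-Hochberg over 5498 models, adjusted p under 0.05; the biological coefficient of variation was 0.670. All adjusted p-values in the text are from this fit unless another is named. DESeq2 1.42.0, other scalings and filters and each library left out were alternatives. Where both libraries of a group had 0 reads, folds were taken against 3 reads per library. Intervals are 95% exact binomial; they and this floor cover counting error only, as the reads carry no molecular identifiers. On data simulated from 5498 models for this comparison, 98% of log2 changes of 6 and 40% of −6 were recovered, 14% of 3 and of −3, and 2 of 4080 unchanged models were called. The simulation drew every library from input levels with a common spread. It did not choose models on TH59-DB library 1 or let the masked libraries differ, so its rates need not hold for these data.

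Lists were described by counts and medians without a set test. Named were a fixed list of genes, the 12 models with the largest ratio among calls in each direction (also within gene spans, 1 per gene), the 8 highest models in each group, and up to 4 per list (2 by smallest p, 2 by highest mean); other names were chosen after their values were seen. Members, lists and rules were chosen with earlier results of these data known.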

Additional observations from a re-analysis of the deposited data

How the results depend on the processing

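Terc, the models at the ends of chromosomes 2 and 14 and on chromosome Y, and those of Lama1, Esr1, Ptprm, Plxnc1 and Setd4 kept their call in all 16 alternatives run. The 242 higher models became 542 with only the 4 libraries compared and 80 to 497 when 1 library was left out; the 3 lower models became 37 with DESeq2, 0 without TMM, 29 with totals from FPKM, 30 without a read filter, 36 with only the 4 libraries, 1 without the 2 most abundant models (chosen after seeing the data) and 0 to 53 with 1 library left out. Within 1 Mb of a mark, 37 higher models became 99 with the 4 libraries, 10 to 86 with 1 left out, and 22 on autosomes with 1 model per locus. In no gene span, 127 became 242 with the 4 libraries and 45 to 228 with 1 left out. The Terc share was 4.61% of the TH59-DB reads counted in models and 0.00586% of those of the input. Taken of the library totals instead, the input share was 0.00287%, and 0.00370% without the reads of the 2 most abundant models. Among the fits with 1 library left out, the fewest higher models came without TH59-DB library 2 and the most without masked library 1; the cause was not tested.

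Same-numbered libraries deviated together with a correlation of 0.0936 between input and TH59-DB, 0.158 between input and masked probe and 0.0504 between the captures, so the numbers were not taken as pairs. With the replicate number as a block, 277 models were higher and 48 lower, among the latter 10 ribosomal protein genes and 1 erythroid gene.

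Signs turned for genes that had not passed. With 1 library left out, Rmrp ran from −0.27 (without input library 2) to 1.02 and was also negative without masked or TH59-DB library 2, at −0.068 and −0.017; without the 2 most abundant models it was −0.074. Rny1 ran from −2.14 to 2.71 and Rny3 from −3.96 to 0.61, both positive without input library 1. Scarna6 ran from −1.02 to 2.45, Gata1 from −0.66 to 1.15 and Gapdh from −0.36 to 0.78, all negative without TH59-DB library 2, and Gapdh was −0.019 with totals from FPKM. The cause was not tested. With 2 libraries a group and a coefficient of variation of 0.670, log2 changes of 3 were recovered in 14% of simulated cases.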

Other observations

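Of 1346 loci with 0 reads in both inputs, 170 had at least 10 reads in TH59-DB library 2, against 35 and 62 in the masked libraries, while 771 had 0 reads there. TH59-DB library 1 had reads at all of these loci. Whether this is the reason they were in the files was not tested. Chromosome 2 held 21 of the 201 higher loci, the most of any chromosome, followed by chromosome 16 with 15. Of all windows of 1.5 Mb over 1 Mb from a mark, the one with the most higher loci lay at 177.5 to 179 Mb of chromosome 2; it was chosen for its calls and is given as a description. There 15 of 17 loci were tested, all 15 had a positive log2 fold change, with a median of 4.48, and 8 were higher. Besides Zfp971, this window held higher models in the spans of Gm14326, with 3 and 2 input reads, 0 and 5 masked reads and 37 and 143 TH59-DB reads (log2 fold change 5.95, edgeR adjusted p = 0.00568), and of Gm14325, with 4 and 5, 0 and 0, and 34 and 147 reads (5.19, adjusted p = 0.00965). Genes in this window resemble each other in sequence where they are members of a multigene family, so how reads were divided between such copies by the counting is uncertain.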
